A study of Mus musculus with 16 samples.

Results

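The comparison asks whether the G34W substitution changed expression differently when it was carried by histone H3.3 than when it was carried by histone H3.1. For each gene it is the H3.3 difference, H3.3 G34W minus H3.3 WT, minus the H3.1 difference, H3.1 G34W minus H3.1 WT, on the scale log2(value + 1). Values after ± are standard errors of the fit unless said otherwise, and the log2(value + 1) scale understates the change of low genes. A positive interaction means that G34W moved the gene further up, or less far down, on H3.3 than on H3.1. A gene was a member when its values averaged 10 or more across the 8 libraries of these 4 groups, which held for 12578 of the 20325 genes in the table. Just outside this minimum lay Fcna at 9.97, Npas2 at 9.98 and Ppp1r3a at 9.99, and just inside lay Cpvl at 10.01 and Gm12250 at 10.04.

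The cells were C3H10T1/2, an established mouse line of mesenchymal type that can be driven towards bone, cartilage, fat and muscle. Every group carried its endogenous histone genes and a stably expressed lentiviral histone H3 transgene, introduced over 2 days and followed by 4 days of selection with puromycin at 1.5 µg/ml. The 4 groups used here expressed H3.3 G34W, H3.3 WT (the unchanged H3.3), H3.1 G34W or H3.1 WT (the unchanged H3.1), with 2 libraries each of polyadenylated RNA. G34W replaces the glycine at residue 34 of H3 with tryptophan. The other 4 groups of the series, H3.3 G34R, H3.3 G34W K36R, H3.3 K27R and H3.3 G34W K27R, entered the fit only through the spread between their libraries. The labels name no promoter for the transgene, give no level of the transgenic protein and leave unsaid whether both libraries of a group are independent cultures. The p-values therefore reflect spread among libraries, and part or all of that spread could be technical.

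H3.1 is made in S phase and laid down behind the replication fork by the CAF-1 chaperone, while H3.3 is made throughout the cell cycle and laid down independently of replication, by HIRA at active genes and by DAXX with ATRX at repeats and telomeres. Residue 34 sits beside lysine 36, whose methylation by SETD2 and the NSD enzymes marks transcribed chromatin and hinders PRC2, the complex that methylates lysine 27. Substitutions at residue 34 interfere with lysine 36 methylation on the tail that carries them, and G34W on H3.3 is the characteristic mutation of giant cell tumour of bone.

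The 8 libraries held an estimated 30.8 M to 49.1 M reads (M for mega), 30.8 to 33.8 in the H3.3 groups and 35.6 to 49.1 in the H3.1 groups, and 3 reads corresponded to a value between 2.27 and 3.28. Values are the deposited normalised values, which are estimated counts scaled per library. The H3.3 WT libraries agreed within sampling noise over the 2761 genes whose values were whole reads (a chi-square of 0.956 for each degree of freedom, p = 0.950) but not over all 12462 genes with enough reads (1.23, p = 6.05e-63), and they were averaged and counted as 1 sample. In the other 3 groups this quotient was between 214.5 and 260.1 over all genes. H3.1 G34W replicate 1 was closer across genes to H3.1 WT replicate 1 (r = 0.992) than to its own replicate (r = 0.967), and H3.1 G34W replicate 2 was closest to H3.3 G34W K36R replicate 2 (r = 0.974). H3.3 G34W replicate 2 was likewise closer to H3.3 WT replicate 1 (r = 0.966) than to its own replicate (r = 0.936). H3.3 G34W replicates 1 and 2 were both closest to H3.3 G34R replicate 1 (r = 0.9521 and 0.9795). All 10 fibroblast and mesenchymal markers were measured. Their summed value was 793685 to 835729 in H3.3 G34W and 583292 to 583748 in H3.3 WT, and it was 610422 to 804900 in H3.1 G34W and 694825 to 752409 in H3.1 WT. Leukocyte markers, led by Cd14, summed to 244 to 400.3 in H3.3 G34W and 419 to 433 in H3.3 WT, and to 199.7 to 248 in H3.1 G34W and 274 to 401 in H3.1 WT, with Cd3e at 0. Skeletal muscle markers summed to 439 to 442 in H3.3 G34W and 192 to 211 in H3.3 WT. On H3.1 they summed to 41.5 to 145 in H3.1 G34W and 165 to 168 in H3.1 WT. Acta1 led them except in H3.1 G34W replicate 2, and Pax7 was at 0. Neuron markers summed to 285 to 1513 in H3.3 G34W and 621 to 653 in H3.3 WT. On H3.1 they summed to 1135 to 1811 in H3.1 G34W and 2184 to 2963 in H3.1 WT, with Nefm at 0. Stmn2 led them in the H3.1 libraries and in H3.3 G34W replicate 2, and Tubb3 in the other H3.3 libraries. Tubb3 was at 626 and 596 in H3.3 WT and between 33.2 and 57.7 on H3.1, the reverse of Stmn2, so these sums mix opposite directions. Endothelial markers summed to 956 to 3773 in H3.3 G34W and 970 to 1022 in H3.3 WT, and to 134 to 336 in H3.1 G34W and 106 to 163 in H3.1 WT, carried mainly by Tek. Epithelial markers summed to 45.1 to 352 in H3.3 G34W and 943 to 981 in H3.3 WT, where Krt14 carried the sum. On H3.1 they summed to 54.9 to 86.2 in H3.1 G34W and 60.6 to 66.7 in H3.1 WT. Their part in the results was not tested. In bulk RNA, fewer cells of a type and less RNA per cell cannot be told apart.

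The interaction was called for 28 genes by limma with Benjamini-Hochberg adjustment at 0.05 (0.223% of those tested). Of these, 17 were positive (0.135%) and 11 negative (0.0875%). The negative ones were led by Serpina3 protease inhibitors, the neighbouring membrane protein genes Tmem176a and Tmem176b, the metallothionein Mt2 and the chemokine Ccl2, all of which had far lower values in H3.3 G34W than in H3.3 WT and no such drop on H3.1 except in Ccl2. The positive ones included the paired cell cycle inhibitor genes Cdkn2a and Cdkn2b, the imprinted gene Mest, the IGF-binding protein Igfbp2 and the Notch target Hey1. At an unadjusted p under 0.05 the interaction passed for 1332 genes (10.6%), 740 positive and 592 negative. It kept 1 sign in all 16 choices of 1 library per group for 2738 genes (21.8%), and for 28 of the 28 called genes. The call rests on these same libraries and favours genes that keep 1 sign. Tightening the threshold to 0.01 left 3 genes, Tmem176a, Serpina3f and Serpina3g, and widening it to 0.1 gave 62. Just outside the threshold lay Tspan7 (interaction -3.66, adjusted p = 0.0534), Cyp3a13 (-3.98), Cd200 (5.64), Vip (5.76) and Mmp15 (2.15), these 4 at an adjusted p of 0.0543.

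The H3.3 difference by itself called 133 genes (1.06%), 84 higher and 49 lower in H3.3 G34W, and the H3.1 difference called 0 (0%), with 2003 at an unadjusted p under 0.05 and a lowest adjusted p of 0.0925 (limma). Across genes the interaction had a SD of 0.83, the H3.3 difference one of 0.71 and the H3.1 difference one of 0.54, with a median interaction of 0.02 and a median standard error of 0.37. Leaving out 1 library gave 319 calls on H3.3 without H3.3 G34W replicate 1 and 1502 without replicate 2, 424 without H3.1 G34W replicate 1 and 422 without its replicate 2, 313 without H3.1 WT replicate 1 and 304 without its replicate 2, and between 50 and 54 after dropping any 1 library of the 4 other groups. On H3.1 it gave 2471 without H3.1 G34W replicate 1, 1 without replicate 2, 2264 without H3.1 WT replicate 1 and 13 without either H3.3 G34W library. The libraries of a group differed in how far they lay from WT. H3.3 G34W replicate 1 minus H3.3 WT moved 16.1% to 16.2% of genes by at least 1, and replicate 2 minus H3.3 WT 9.04% to 9.15%. H3.1 G34W replicate 1 minus H3.1 WT replicate 1 moved 3.02% and minus H3.1 WT replicate 2 moved 9.06%, while replicate 2 minus H3.1 WT moved 16% to 22.1%. The H3.3 and H3.1 differences share no library, and across the 12578 genes they correlated at r = 0.143, as a description over genes that are not independent.

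**Figure D1:**
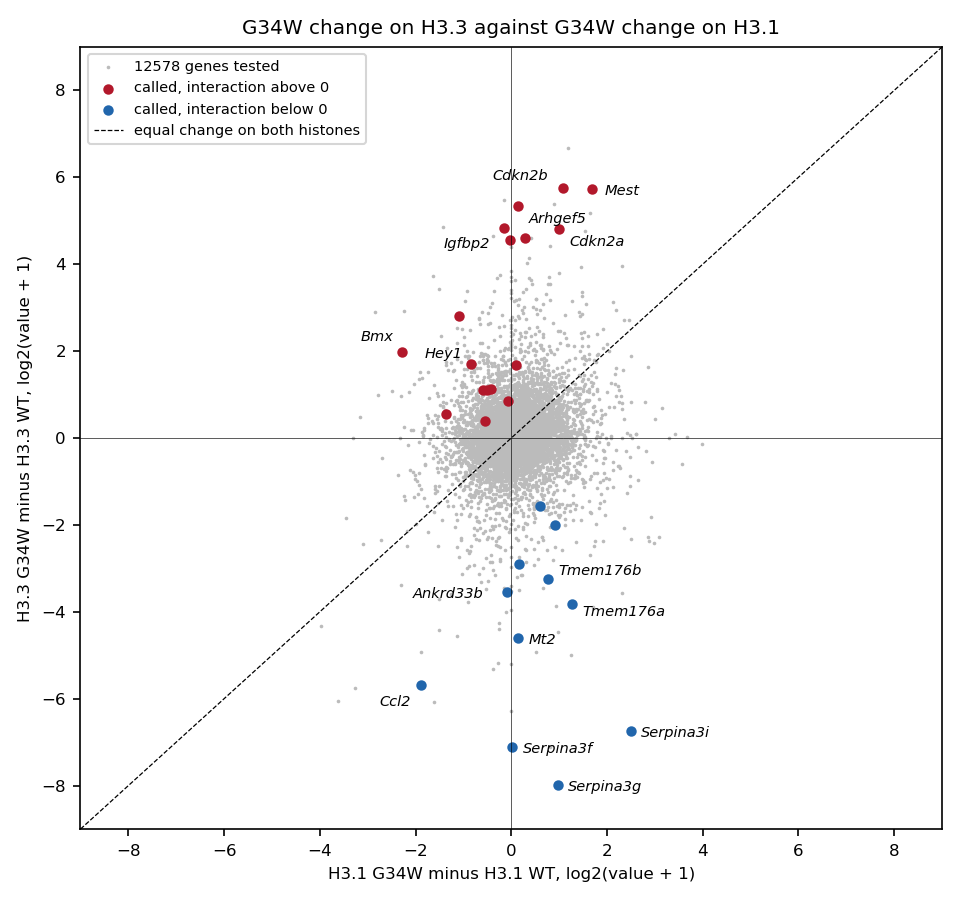
Each point is 1 of the 12578 genes, with H3.1 G34W minus H3.1 WT on the horizontal axis and H3.3 G34W minus H3.3 WT on the vertical axis, both on the log2(value + 1) scale; red and blue points are the 28 called genes and the dashed line marks equal change on both histones. The called genes spread from -7.98 to 5.75 along the vertical axis and from -2.28 to 2.50 along the horizontal one.

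The count of 28 depended on the spread pooled over all groups. Among genes with many reads, the SD of the log2 ratio between paired libraries was 0.46 to 0.54 in H3.3 G34W, H3.1 G34W and H3.1 WT. In H3.3 G34R, H3.3 K27R, H3.3 G34W K27R and H3.3 G34W K36R it was only 0.05 to 0.07. A fit of the 4 groups alone called 0 genes, with 245 at an unadjusted p under 0.05, and with each of the 5 closely agreeing pairs of the series counted as 1 sample it was 0 as well, with 255. Leaving out 1 library gave 137 without H3.3 G34W replicate 1, 781 without H3.3 G34W replicate 2, 850 without H3.1 G34W replicate 1, 904 without H3.1 WT replicate 1, 16 without H3.1 WT replicate 2 and 12 without H3.3 WT replicate 1. It was 7 without either H3.3 G34R library, 3 without either library of H3.3 G34W K36R or of H3.3 G34W K27R, with 4 after dropping H3.3 K27R replicate 1 and 5 after dropping its replicate 2. Tmem176a, Serpina3f and Serpina3g were called in all 16 of these fits. All 28 genes kept their sign in each of them, which the call itself favours. With close pairs as 1 sample the adjusted p was 0.881 for Tmem176a, 0.432 for Serpina3f and 0.305 for Serpina3g. The split of 17 positive and 11 negative calls became 6 and 9 after rescaling by a trimmed mean of log ratios and 12 and 15 after quantile normalization.

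**Figure D2:**
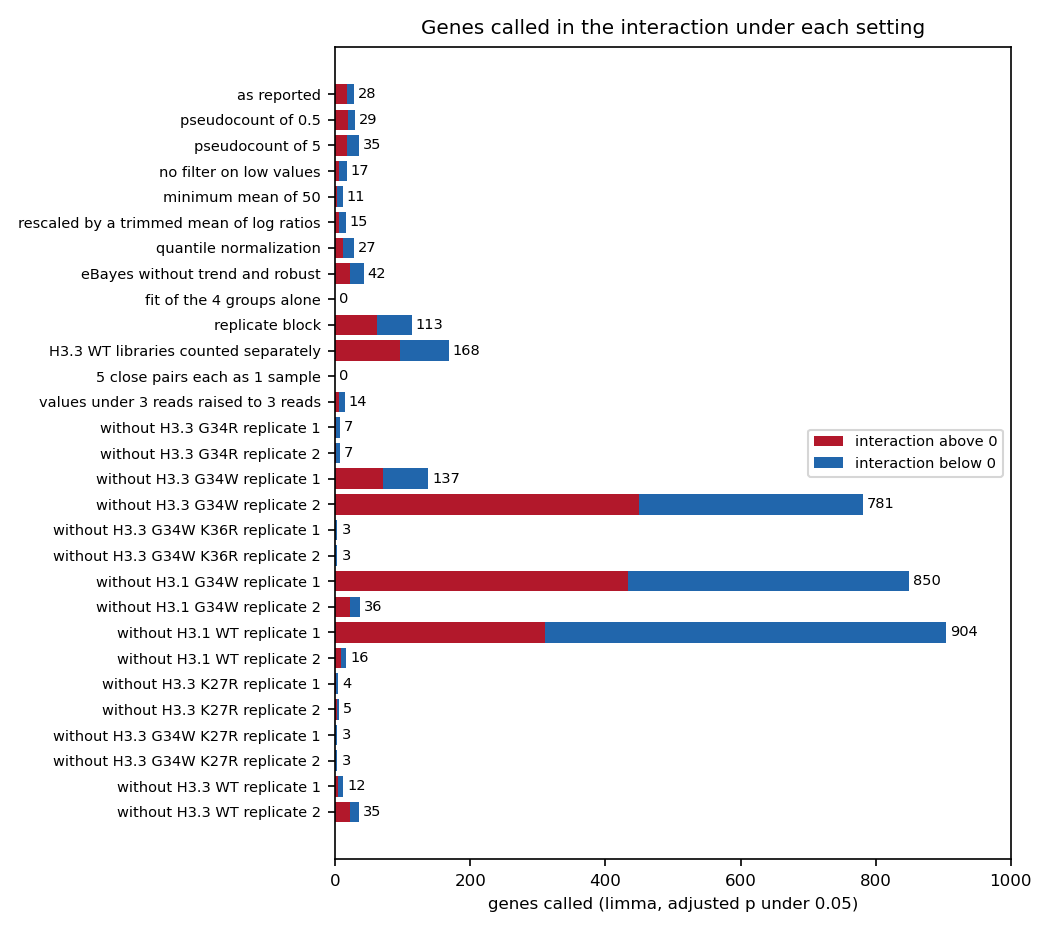
Bars give the number of genes called in the interaction at an adjusted p under 0.05 under each setting, split into interactions above 0 (red) and below 0 (blue). The count is 28 as reported, between 3 and 904 when 1 library is left out, and 0 for the 4 groups alone and for close pairs counted as 1 sample.

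The Serpina3 genes on chromosome 12 encode secreted and intracellular serine protease inhibitors that are induced by cytokines, and 3 of their 4 measured members had a negative interaction that was called. Their promoter windows are shown because the members lie side by side and moved together. Each runs from 250 bases before to 50 after the annotated start on the plus strand of RefSeq assembly GRCm38.p6, at chr12:104214294-104214593 for Serpina3f, chr12:104235897-104236196 for Serpina3g and chr12:104262872-104263171 for Serpina3i. The deposited table carries no coordinates. Capitals mark matches to the STAT motif TTCNNNGAA and to the NF-kB consensus, searched on both strands.
Serpina3f: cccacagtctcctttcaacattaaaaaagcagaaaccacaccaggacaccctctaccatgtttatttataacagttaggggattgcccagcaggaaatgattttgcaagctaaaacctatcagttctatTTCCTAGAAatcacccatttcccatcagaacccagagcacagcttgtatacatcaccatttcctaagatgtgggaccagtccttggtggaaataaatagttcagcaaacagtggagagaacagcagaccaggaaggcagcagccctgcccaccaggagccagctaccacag
Serpina3g: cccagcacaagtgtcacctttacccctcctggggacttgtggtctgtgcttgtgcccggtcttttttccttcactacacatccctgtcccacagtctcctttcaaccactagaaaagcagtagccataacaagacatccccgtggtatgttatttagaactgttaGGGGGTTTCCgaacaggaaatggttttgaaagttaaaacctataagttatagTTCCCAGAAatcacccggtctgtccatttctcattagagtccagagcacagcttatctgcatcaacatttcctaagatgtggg
Serpina3i: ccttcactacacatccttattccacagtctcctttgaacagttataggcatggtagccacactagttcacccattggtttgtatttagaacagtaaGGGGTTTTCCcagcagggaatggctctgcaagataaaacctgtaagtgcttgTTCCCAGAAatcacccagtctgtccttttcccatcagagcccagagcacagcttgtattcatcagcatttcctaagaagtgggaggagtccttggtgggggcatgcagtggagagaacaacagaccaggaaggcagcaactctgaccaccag
The windows were 81.7% to 83.7% identical over their aligned bases. The STAT motif stood at position -121 from the start in Serpina3f, -33 in Serpina3g and -102 in Serpina3i, and the NF-kB consensus at -85 in Serpina3g and -154 in Serpina3i. Among all 27025 RefSeq windows of this length 8.47% held the STAT motif and 4.35% the NF-kB consensus, and among the 21 called genes with a window 3 held each. A match is a description of the sequence and not of binding.

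Serpina3g had values of 4.69 and 9.85 in H3.3 G34W, against 1972 and 1983 in H3.3 WT. On H3.1 it had 78.3 and 205 in H3.1 G34W, against 54.4 and 75.1 in H3.1 WT. H3.3 WT stood far above the 3 other groups, and both H3.3 G34W libraries lay below every H3.1 library. The interaction was -8.95 ± 0.81 (limma adjusted p = 0.00261), made of an H3.3 difference of -7.98 ± 0.63 and an H3.1 difference of 0.98 ± 0.51. Serpina3f was at 8.35 and 3.27 in H3.3 G34W, against 860.3 and 879 in H3.3 WT, and at 18.8 and 18.8 in H3.1 G34W, against 17.6 and 19.5 in H3.1 WT. Its H3.1 groups overlapped, and the interaction of -7.12 ± 0.59 (adjusted p = 0.00261) was nearly all H3.3 difference (-7.11 ± 0.46). Serpina3i was at 1.03 and 4.37 in H3.3 G34W, against 375 and 334 in H3.3 WT, and at 7.41 and 37.3 in H3.1 G34W, against 1.53 and 2.98 in H3.1 WT. Its interaction was -9.25 ± 1.11 (adjusted p = 0.0192), or -8.61 with values under 3 reads raised to 3 reads, a setting chosen after the data were seen. Serpina3n, the fourth member, had an interaction of -3.35 ± 0.84 that was not called (adjusted p = 0.199), with 31.9 and 21.9 in H3.3 G34W, against 191 and 184 in H3.3 WT, and at most 3.85 in the H3.1 libraries. These genes are near copies of each other, so reads may have been split between them and single values are uncertain.

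The same genes were read in the other groups of the series. Serpina3g was at 874 and 854 in H3.3 G34W K36R, 144 and 171 in H3.3 K27R, 42.6 and 22.9 in H3.3 G34R and 33.5 and 17.7 in H3.3 G34W K27R, so H3.3 WT was the highest and H3.3 G34W the lowest of the 8 groups. Serpina3f was at 628 and 638 in H3.3 G34W K27R, and the other 3 groups lay between 32.3 and 96.3, again with H3.3 WT above and H3.3 G34W below every other library.

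Tmem176a and Tmem176b encode related 4-pass membrane proteins of the MS4A type, best known from dendritic cells, and are transcribed head to head on chromosome 6. Their starts lie 346 bases apart, so their promoter windows, chr6:48841233-48841532 on the plus strand and chr6:48841088-48841387 on the minus strand of GRCm38.p6, share 155 of 300 bases. They are shown for this shared stretch, which is in capitals and reads as the reverse complement in the other gene.
Tmem176a: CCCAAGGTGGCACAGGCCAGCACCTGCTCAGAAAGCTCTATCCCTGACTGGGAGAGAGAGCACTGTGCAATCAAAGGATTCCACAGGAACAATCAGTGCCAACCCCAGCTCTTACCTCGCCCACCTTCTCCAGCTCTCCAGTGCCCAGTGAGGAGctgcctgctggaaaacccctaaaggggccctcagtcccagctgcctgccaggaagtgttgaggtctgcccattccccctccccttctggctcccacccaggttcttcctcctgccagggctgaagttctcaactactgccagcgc
Tmem176b: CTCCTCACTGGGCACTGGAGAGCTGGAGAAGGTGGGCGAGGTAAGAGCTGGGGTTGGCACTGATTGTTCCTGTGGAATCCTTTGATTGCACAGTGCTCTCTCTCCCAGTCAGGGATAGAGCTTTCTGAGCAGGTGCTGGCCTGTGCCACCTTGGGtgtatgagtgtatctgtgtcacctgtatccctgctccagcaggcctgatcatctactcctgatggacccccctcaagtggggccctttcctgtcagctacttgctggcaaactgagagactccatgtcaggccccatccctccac
Tmem176a was at 128 and 84.2 in H3.3 G34W, against 1468 and 1470.3 in H3.3 WT. In the H3.1 cells it was at 17.6 and 16.2 in H3.1 G34W, against 6.06 and 6.84 in H3.1 WT. The 4 groups did not overlap, and G34W libraries were below WT on H3.3 and above WT on H3.1. The interaction was -5.08 ± 0.47 (adjusted p = 0.00261), from -3.81 ± 0.36 on H3.3 and 1.26 ± 0.30 on H3.1. Tmem176b followed the same order, with 344 and 173 in H3.3 G34W, 2335 and 2336 in H3.3 WT, 34.2 and 37.7 in H3.1 G34W and 16.7 and 25.4 in H3.1 WT, and an interaction of -4.03 ± 0.53 (adjusted p = 0.0229). In the other groups Tmem176a lay between 8.76 in H3.3 G34W K27R and 133 in H3.3 G34R, so both H3.3 WT libraries lay above every other library of the series. An NF-kB consensus lay at position -86 of the Tmem176a window.

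Mt2 encodes a metallothionein, a small cysteine-rich protein that binds zinc and copper and is induced by metals through the factor MTF1. Its window at chr8:94172368-94172667 on the plus strand is shown because it holds 4 matches, in capitals, to the core of the metal response element, TGCACNC or TGCGCNC on either strand, which 25.6% of all windows hold at least once.
Mt2: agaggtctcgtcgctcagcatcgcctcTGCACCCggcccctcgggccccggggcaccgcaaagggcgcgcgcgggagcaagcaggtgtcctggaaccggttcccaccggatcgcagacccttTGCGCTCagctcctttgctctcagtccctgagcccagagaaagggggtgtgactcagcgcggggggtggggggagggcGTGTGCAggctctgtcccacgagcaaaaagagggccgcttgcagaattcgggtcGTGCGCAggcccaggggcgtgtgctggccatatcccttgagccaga
Mt2 was at 44.1 and 120.3 in H3.3 G34W, against 1724 and 1856 in H3.3 WT, and at 1288 and 2087 in H3.1 G34W, against 1189 and 1846 in H3.1 WT. Only the H3.3 G34W libraries stood apart from the other 6, where the groups overlapped. The interaction was -4.74 ± 0.63 (adjusted p = 0.0229), with -4.60 ± 0.49 on H3.3 and 0.15 ± 0.40 on H3.1. Of 7 metallothioneins and zinc transporters measured Mt2 was the called one. Mt1, its neighbour and near copy, had an interaction of -0.88 ± 0.29 (adjusted p = 0.317), with 738 and 672 in H3.3 G34W, 1518 and 1531 in H3.3 WT, 2261 and 2158 in H3.1 G34W and 2058 and 3281 in H3.1 WT. Reads shared between the pair could shift both values.

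Ccl2, the chemokine that attracts monocytes, was at 138 and 133 in H3.3 G34W, against 7148 and 7007 in H3.3 WT, and at 1578 and 578 in H3.1 G34W, against 2904 and 4342 in H3.1 WT. G34W libraries were below WT libraries on both histones with no overlap, by -5.69 ± 0.46 on H3.3 and -1.89 ± 0.37 on H3.1, and the interaction was -3.80 ± 0.59 (adjusted p = 0.0493). The highest libraries of the series were those of H3.3 G34W K27R, at 13934 and 13985. Among the 25 NF-kB chemokines and acute phase genes measured Ccl2 alone was called. The median interaction of these genes was -0.78, between -1.47 and -0.67 over the 16 library choices, against 0.02 for all genes, and 17 of the 25 were negative. Ccl7, the neighbouring chemokine, and Cxcl5, a neutrophil attractant, fell on H3.3 with Ccl2 (-4.41, adjusted p = 0.00191, and -6.07, adjusted p = 0.0475), but their interactions of -2.90 ± 0.56 and -4.46 ± 1.55 were not called (adjusted p = 0.0841 and 0.345). Cxcl5 was at 924 and 61.2 in H3.3 G34W, against 16137 and 16052 in H3.3 WT, with 87.0 and 309 in H3.1 G34W, against 403 and 628 in H3.1 WT. Lcn2, a siderophore-binding acute phase protein, was at 222 and 39.4 in H3.3 G34W, against 3725 and 3810.5 in H3.3 WT, and at 5.86 or less in each H3.1 library, with an interaction of -4.94 ± 1.58 (adjusted p = 0.306).

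Of the remaining negative calls, Aim2 encodes a sensor of cytosolic DNA that nucleates an inflammasome. It was at 122 and 141 in H3.3 G34W, against 375 and 396 in H3.3 WT, and at 98.4 and 124 in H3.1 G34W, against 68.0 and 77.0 in H3.1 WT, an interaction of -2.15 ± 0.35 (adjusted p = 0.0493). Nckap5 was at 77.0 and 99.5 in H3.3 G34W, against 382 and 324 in H3.3 WT, and at 92.2 and 142 in H3.1 G34W, against 74.5 and 48.9 in H3.1 WT, an interaction of -2.91 ± 0.47 (adjusted p = 0.0493). In both genes G34W was lower than WT on H3.3 and higher on H3.1 without overlap, and H3.3 WT was above every other library of the series. Ankrd33b behaved otherwise: it was at 9.39 and 10.9 in H3.3 G34W, against 135 and 123 in H3.3 WT, and at 86.0 and 102 in H3.1 G34W, against 99.3 and 101 in H3.1 WT. Here the H3.3 G34W libraries were the ones apart, below every other library of the series, and the interaction was -3.45 ± 0.46 (adjusted p = 0.0229). The transcript 6330406I15Rik, named although the rule leaves out provisional symbols, was at 835 and 484 in H3.3 G34W, against 4768 and 4753 in H3.3 WT, and at 394 and 687 in H3.1 G34W, against 429 and 501 in H3.1 WT (interaction -3.07 ± 0.43, adjusted p = 0.0294).

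Among the positive calls, Cdkn2a and Cdkn2b lie side by side on chromosome 4 and encode p16INK4A and ARF, and p15INK4B, brakes of the cell cycle that PRC2 is known to hold silent in young cells. Cdkn2a was at 37.5 and 39.4 in H3.3 G34W, against 0.968 and 0 in H3.3 WT, and at 13.5 and 9.24 in H3.1 G34W, against 5.31 and 4.89 in H3.1 WT. Cdkn2b was at 61.9 and 44.8 in H3.3 G34W, against 0 and 0 in H3.3 WT, and at 5.18 and 11.5 in H3.1 G34W, against 1.52 and 5.86 in H3.1 WT. Both genes were higher in G34W than in WT on H3.3, where WT held 1 and 0 reads in all, and the H3.1 difference was not called (adjusted p = 0.303 for Cdkn2a); it was 1.08 ± 0.48 for Cdkn2b, where the H3.1 groups overlapped. On H3.3 the ratio of Cdkn2a was 79.5 (95% counting interval 13.8 to 3172), and Cdkn2b was at least 18.4-fold higher against the floor of 3 reads per library. Such intervals and floors cover counting error only. The interactions were 3.81 ± 0.50 (adjusted p = 0.0229) and 4.66 ± 0.75 (adjusted p = 0.0493), but with values under 3 reads raised to 3 reads they were 2.34 and 2.89 and were not called (adjusted p = 0.104 and 0.146). The 4 other CDK inhibitors measured were not called, among them Cdkn2d (0.89 ± 0.38) and Cdkn2c (0.62 ± 0.25), and the median of the 6 was 0.76. In the other groups of the series Cdkn2a was at 427 and 456 in H3.3 G34W K27R, 142 and 139 in H3.3 G34R, 115 and 69.8 in H3.3 K27R and 27.4 and 25.6 in H3.3 G34W K36R, so that the H3.3 WT libraries were the lowest of all 16.

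Mest, a maternally imprinted gene of the hydrolase fold family expressed in embryonic mesoderm and growing fat, was at 4590.0 and 5234 in H3.3 G34W, against 92.0 and 89.1 in H3.3 WT. On H3.1 it was at 226 and 731 in H3.1 G34W, against 125 and 125 in H3.1 WT. Both WT pairs were low and tight, G34W was above WT on both histones without overlap, and the H3.3 G34W libraries were the highest of the series. The interaction was 4.05 ± 0.63 (adjusted p = 0.0493), from 5.74 ± 0.49 on H3.3 and 1.69 ± 0.40 on H3.1. Mest was the called gene among 13 imprinted genes measured, whose median interaction was 0.01. Dlk1 (2.81 ± 1.01) and Igf2 (2.79 ± 1.14) were positive and not called (adjusted p = 0.36 and 0.429). Igfbp2, a secreted protein that binds insulin-like growth factors, was at 341 and 569.7 in H3.3 G34W, against 14.5 and 21.3 in H3.3 WT, and at 229 and 103 in H3.1 G34W, against 100.1 and 246 in H3.1 WT. The H3.1 groups overlapped fully and lay nearer to H3.3 G34W than H3.3 WT did, for an interaction of 4.60 ± 0.71 (adjusted p = 0.0493). It was the called gene of 19 IGF genes, whose median was -0.10. Igf2bp2, an RNA-binding protein of the same list, fell on H3.3 (-1.29, adjusted p = 0.00652) with an interaction of -1.25 ± 0.21 (adjusted p = 0.0543).

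Hey1, Bmx and Chst11 had H3.3 and H3.1 differences of opposite sign. Hey1, a transcriptional repressor induced by Notch, was at 1299 and 833 in H3.3 G34W, against 296 and 347 in H3.3 WT, and at 33.2 and 26.2 in H3.1 G34W, against 45.5 and 63.5 in H3.1 WT. Its interaction was 2.54 ± 0.41 (adjusted p = 0.0493), and of the 18 Notch pathway genes measured (median 0.11) it alone was called; Hey2 was at 2.06 ± 0.93 and the receptor Notch3 at -2.22 ± 1.03. Bmx, a tyrosine kinase of the Tec family, was at 805 and 437 in H3.3 G34W, against 151 and 147 in H3.3 WT, and at 0 and 0 in H3.1 G34W, against 3.03 and 4.89 in H3.1 WT. The interaction of 4.27 ± 0.68 (adjusted p = 0.0493) rests on values at or under a few reads on H3.1, where H3.1 G34W was at least 1.46-fold lower against the floor of 3 reads per library. With values under 3 reads raised to 3 reads it was 2.39 and not called (adjusted p = 0.183). Chst11, which sulphates chondroitin chains, was at 4882 and 4787 in H3.3 G34W, against 2288 and 2177 in H3.3 WT, and at 419 and 289.5 in H3.1 G34W, against 583 and 473 in H3.1 WT, an interaction of 1.71 ± 0.27 (adjusted p = 0.0493). In all 3 genes H3.3 G34W was above H3.3 WT, and H3.1 G34W below H3.1 WT, without overlap.

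**Figure D3:**
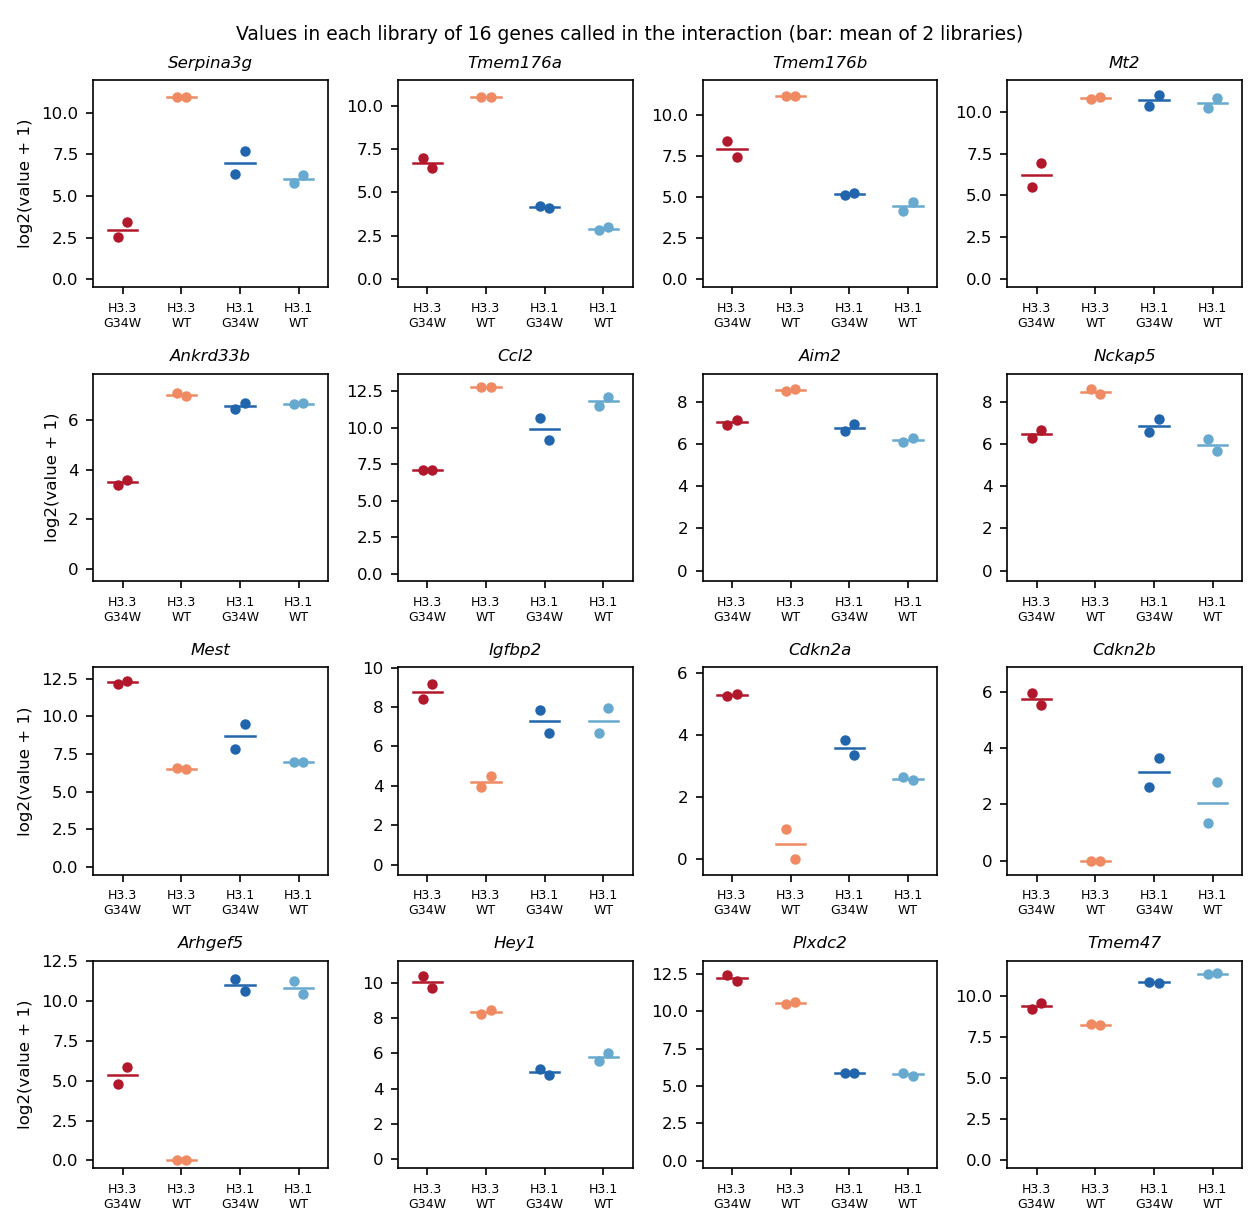
Each panel gives log2(value + 1) of 1 called gene in the 2 libraries of H3.3 G34W, H3.3 WT, H3.1 G34W and H3.1 WT, with a bar at the mean; each panel has its own axis. Serpina3g and Tmem176a have H3.3 WT far above the other groups, Cdkn2a, Cdkn2b and Arhgef5 have H3.3 WT at or near 0, and Mt2 and Ankrd33b have H3.3 G34W alone apart.

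Tmem47, a tight junction associated membrane protein, was at 585 and 753 in H3.3 G34W, against 314 and 298 in H3.3 WT, and at 1889 and 1779.7 in H3.1 G34W, against 2568 and 2675 in H3.1 WT, with no overlap between any groups (interaction 1.63 ± 0.21, adjusted p = 0.0229). Plxdc2, a plexin domain membrane protein, rose on H3.3 to 5458 and 4052 in H3.3 G34W, against 1388 and 1526 in H3.3 WT, while the H3.1 groups overlapped at 58.0 and 56.2 in H3.1 G34W and 57.6 and 49.8 in H3.1 WT (interaction 1.60 ± 0.26, adjusted p = 0.0497). Arhgef5, an exchange factor for small GTPases, was at 27.2 and 56.9 in H3.3 G34W, against 0 in both H3.3 WT libraries, and at 2631 and 1605 in H3.1 G34W, against 2474 and 1389 in H3.1 WT. It was at least 14.5-fold higher in H3.3 G34W than in H3.3 WT against the floor, while the H3.1 cells held far more of it and their groups overlapped. The interaction was 5.19 ± 0.59 (adjusted p = 0.0151), or 3.22 with values under 3 reads raised to 3 reads (adjusted p = 0.0705). Podxl2, a sialomucin, was at 82.7 and 27.3 in H3.3 G34W, against 0 and 1.94 in H3.3 WT, and at 19.7 and 23.9 in H3.1 G34W, against 22.0 and 26.4 in H3.1 WT (interaction 4.97 ± 0.68, adjusted p = 0.0277). Dusp27, an atypical dual-specificity phosphatase of muscle, was at 37.5 and 29.5 in H3.3 G34W, against 0.968 and 0 in H3.3 WT, and at 352 and 146 in H3.1 G34W, against 215 and 161 in H3.1 WT (interaction 4.33 ± 0.61, adjusted p = 0.0294). On H3.3 the ratio of Podxl2 was 56.8 (95% counting interval 15.9 to 493) and that of Dusp27 69.3 (12.1 to 2801), and both calls were lost with values under 3 reads raised to 3 reads (3.79 and 2.85, adjusted p = 0.068 and 0.117).

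The positive calls outside the rule for named genes, given here after their values were seen, are Hccs, Tmem189, Akr1c14 and Car8. Hccs, which attaches haem to cytochromes, was at 6038 and 5675 in H3.3 G34W, against 4388 and 4487 in H3.3 WT, and at 2340.4 and 2235 in H3.1 G34W, against 3393 and 3318 in H3.1 WT, an interaction of 0.95 ± 0.16 (adjusted p = 0.0497). Tmem189 had an interaction of 0.93 ± 0.15 (adjusted p = 0.0497), with 4817 and 4599 in H3.3 G34W, 2583 and 2603 in H3.3 WT, 2324 and 2264 in H3.1 G34W and 2409.8 and 2421 in H3.1 WT. Akr1c14, a hydroxysteroid dehydrogenase, had one of 1.56 ± 0.25 (adjusted p = 0.0493), with 1408 and 1258 in H3.3 G34W, 617 and 593 in H3.3 WT, 941 and 702 in H3.1 G34W and 1078 and 1101 in H3.1 WT. Car8, a carbonic anhydrase related protein without enzyme activity, was low throughout, at 19.7 and 17.5 in H3.3 G34W, against 0.968 and 2.91 in H3.3 WT, and at 8.29 and 9.24 in H3.1 G34W, against 23.5 and 16.6 in H3.1 WT (interaction 3.91 ± 0.63, adjusted p = 0.0493).

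Seen by arm, 10 of the 28 called genes moved by at least 1 on H3.3 and by under 0.5 on H3.1 (35.7%, against 4.44% of all genes), and 12 moved by at least 0.5 in opposite ways (42.9%, against 3.76%). None moved by at least 1 on H3.1 alone, as 2.78% of all genes did. The H3.3 difference was the larger of the 2 in 25 of the 28 (89.3%, against 48.4% of all genes), with Bmx and Hccs among the exceptions. A large interaction needs unequal arms, so these shares follow in part from the call. H3.1 WT and H3.3 WT differed by at least 2 on the log2 scale in 21 of the 28 (75%, against 11% of all genes). They differed by under 0.5 in 5 (17.9%, against 44.6%). The gap between the WT groups is a term of the interaction, so these shares also follow in part from the call. The same holds for the shares given next, on the farthest group and on groups outside the range of the series. The group farthest from the other 3 was H3.3 WT in 16 of the 28 (57.1%, against 20.3% of all genes), H3.3 G34W in 9 (32.1%, against 28.1%), H3.1 G34W in 3 (10.7%, against 17.5%) and H3.1 WT in 0 (against 34% of all genes). Against all other libraries of the series, H3.3 WT lay outside their range for 14 of the 28 (8.19% of all genes), H3.3 G34W for 10 (3.74%), H3.1 G34W for 5 (2.53%) and H3.1 WT for 3 (15.8%). H3.3 G34W K27R minus H3.3 K27R, which shares no library with the interaction, had the sign of the H3.3 difference in 19 of the 28 (67.9%, against 58.7% of all genes).

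CpG content was counted in the promoter windows of the called genes. The 9 negative genes with a window had a median of 4 CpG in 300 bases. Serpina3f, Serpina3g and Serpina3i held 0, 4 and 0, and Tmem176a and Tmem176b held 2 and 1. The Serpina3 windows are much alike and the Tmem176 windows overlap, so these are not separate observations. Aim2, Nckap5, Ankrd33b and Mt2 held 5, 12, 22 and 24. The 12 positive genes had a median of 23, with 45 in Cdkn2a and 2 in Akr1c14. All 8920 tested genes with a window had a median of 21, with quartiles of 13 and 29. These are counts of the reference sequence, with no test.

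Gene lists were described by their counts and medians, beside a median of 0.02 and 51.8% positive interactions among all genes. Of all 12578 genes 10.6% passed an unadjusted p under 0.05 (740 positive and 592 negative) and 0.223% were called, the shares to set beside each list. The 51 interferon-stimulated genes, which cells switch on against viruses, had a median interaction of -0.96 (between -1.71 and -0.25 over the 16 library choices). Of these 46 were negative and 17 passed an unadjusted p under 0.05, all negative, and 0 were called. The medians by library, each gene taken relative to its mean of the 8 libraries, were 0.31 and 0.50 in H3.3 G34W, against 0.90 and 0.80 in H3.3 WT, and -0.83 and 0.23 in H3.1 G34W, against -1.03 and -0.92 in H3.1 WT. Replicate 2 of H3.1 G34W stood well above H3.1 WT, and replicate 1 lay close to it. Ifih1, the RNA sensor MDA5, came nearest to a call, with 28.2 and 61.2 in H3.3 G34W, 166 and 168 in H3.3 WT, 43.5 and 102 in H3.1 G34W and 22.7 and 15.6 in H3.1 WT (interaction -3.74 ± 0.65, adjusted p = 0.0577). Trim30a (-3.57 ± 1.07), Mx2 (-3.29 ± 1.55) and Ifit1 (-2.97 ± 1.24) were further off, and Mx2 read 5.18 and 106 in the H3.1 G34W libraries.

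The 23 smooth muscle and contractile genes ran the other way, with a median of 1.03 (0.38 to 2.08 over the library choices), 21 positive, 8 at an unadjusted p under 0.05 and 0 called. Their medians by library were 0.08 and -0.13 in H3.3 G34W, against -0.38 and -0.38 in H3.3 WT, and 0.55 and -0.52 in H3.1 G34W, against 0.60 and 0.55 in H3.1 WT. Both H3.3 G34W libraries were above H3.3 WT, while H3.1 G34W replicate 1 was level with H3.1 WT and replicate 2 was below it. Tagln, which encodes the actin-binding protein transgelin, was at 2560.3 and 1375 in H3.3 G34W, against 453 and 433 in H3.3 WT, and at 7129 and 1582 in H3.1 G34W, against 6396 and 11399 in H3.1 WT (interaction 3.43 ± 0.89, adjusted p = 0.22). Ctgf, a matricellular target of YAP and TGF-beta, had an interaction of 3.43 ± 1.31, Itga8 one of 2.63 ± 0.76 and Lmod1 one of 2.54 ± 0.98, none of them called.

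**Figure D4:**
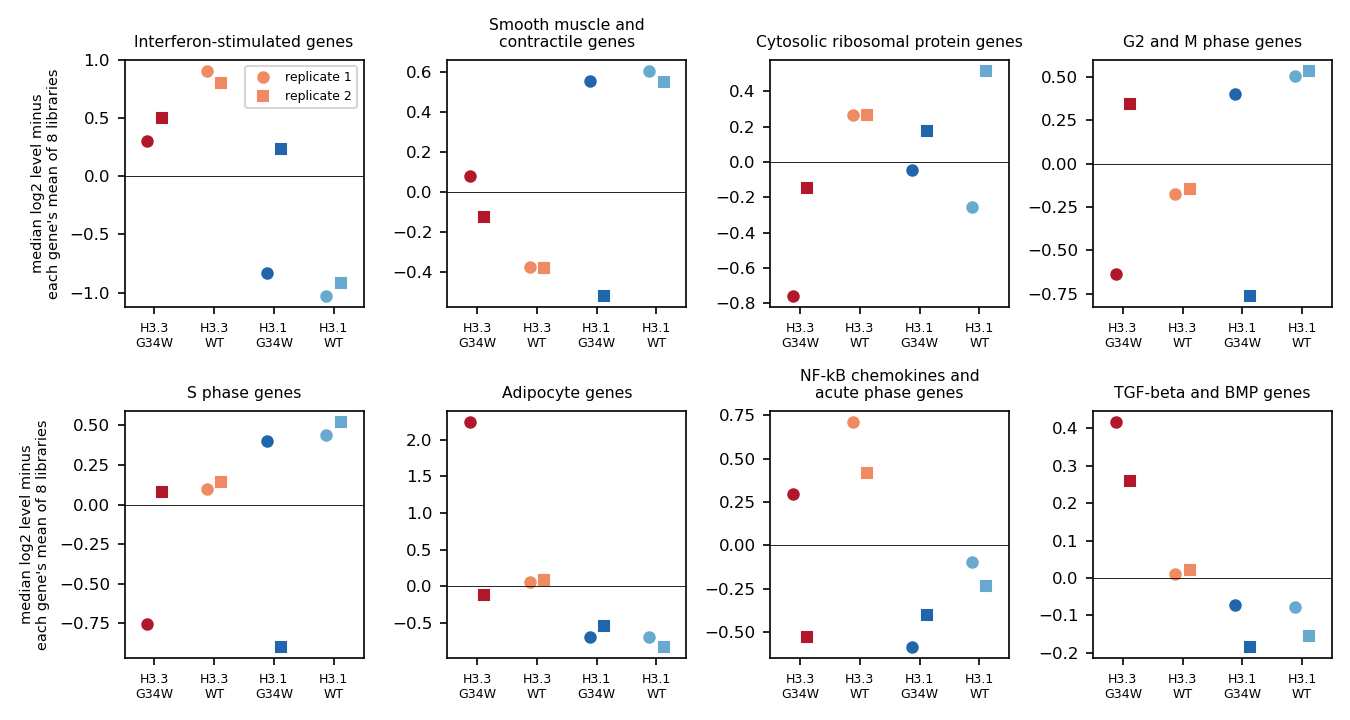
Points give, for 8 gene lists, the median over members of the log2 level minus each gene's mean of the 8 libraries, for replicate 1 (circles) and replicate 2 (squares) of H3.3 G34W, H3.3 WT, H3.1 G34W and H3.1 WT; each panel has its own axis. H3.1 G34W replicate 2 parts from replicate 1 in the interferon, contractile, S phase and G2 and M phase lists. H3.3 G34W replicate 1 parts from replicate 2 in the adipocyte list (2.24 and -0.12). These 2 libraries also part in the S phase (-0.75 and 0.08), G2 and M phase (-0.64 and 0.35), NF-kB (0.30 and -0.53) and ribosomal (-0.76 and -0.15) lists.

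Cell cycle lists showed how far single libraries carried a median. The 37 G2 and M phase genes had a median interaction of 0.75, with 36 positive and 0 called, but it ran between -0.43 and 1.88 over the library choices. Their library medians were -0.64 and 0.35 in H3.3 G34W, against -0.18 and -0.15 in H3.3 WT, and 0.40 and -0.76 in H3.1 G34W, against 0.51 and 0.53 in H3.1 WT. The 38 S phase genes had a median of 0.22 (-0.85 to 1.36), 30 positive and 0 called. Mki67, the proliferation marker, was at 7037 and 17157 in H3.3 G34W, against 12721 and 12782 in H3.3 WT, and at 26339 and 9675 in H3.1 G34W, against 28677 and 10296 in H3.1 WT, an interaction of -0.11 ± 0.87 (adjusted p = 0.97). The 56 cytosolic ribosomal protein genes were negative without exception, with a median of -0.61 (-1.42 to 0.17), 4 at an unadjusted p under 0.05 and 0 called; Rpl23 was at -1.01 ± 0.39 and Rps20 at -0.99 ± 0.43.

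Fat cell genes were high in 1 of the H3.3 G34W libraries. The 26 adipocyte genes had a median of 0.88 (-0.48 to 1.99), with 22 positive and 0 called. Adipoq, which encodes adiponectin, was at 4082 and 7.65 in H3.3 G34W, against 19.4 and 19.4 in H3.3 WT, and at 1.04 or less in every H3.1 library (interaction 2.69 ± 3.17, adjusted p = 0.786). Without H3.3 G34W replicate 1 its interaction was -1.75 and without replicate 2 it was 7.13. Fabp4, a fatty acid carrier, was at 7417 and 74.4 in H3.3 G34W, against 201 and 178 in H3.3 WT, and at 987 and 527 in H3.1 G34W, against 1078 and 1459 in H3.1 WT.

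Matrix and signalling lists held smaller shifts. Of 21 elastic fibre genes, median 0.29 (0.00 to 0.56), 7 passed an unadjusted p under 0.05 as positive and 5 as negative, and 0 were called. Mfap5, a microfibril glycoprotein, was at 7366 and 4962 in H3.3 G34W, against 1302 and 1231 in H3.3 WT, and at 267 and 203 in H3.1 G34W, against 207 and 429 in H3.1 WT (interaction 2.61 ± 0.47, adjusted p = 0.0643). Fbn2, the fibrillin of developing tissue, went the other way at -3.33 ± 0.94, through 92.2 and 449.6 in H3.1 G34W, against 21.2 and 15.6 in H3.1 WT. Eln, which encodes elastin, had an interaction of 1.40 ± 0.52 (adjusted p = 0.38), with 141239 and 153881 in H3.3 G34W, against 39433 and 39418 in H3.3 WT, and only 10.4 and 26.9 in H3.1 G34W, against 13.6 and 9.77 in H3.1 WT. The low level was not particular to the H3.1 groups: H3.3 G34W K36R was at 63.7 and 75.8, while the 3 other H3.3 groups of the series lay between 9424 and 326260.0. The 36 TGF-beta and BMP genes had a median of 0.35 (0.10 to 0.62) and the 27 FGF and MAPK feedback genes one of 0.58 (0.11 to 0.76), both positive in every library choice and with 0 called. Id4, an inhibitor of basic helix-loop-helix factors, was at 3.32 ± 0.92 and Spry4, a feedback inhibitor of receptor tyrosine kinases, at 1.95 ± 0.62. The 26 immediate early genes had a median of 0.68 (0.05 to 1.68), with Nr4a1 at 2.76 ± 1.10, Egr2 at 2.18 ± 0.85 and Fosl1 at -2.19 ± 1.27, none called. The 16 chondrocyte genes had a median of -0.49 (-0.99 to -0.03); Sox6, a cofactor of SOX9, was at 169.9 and 593 in H3.3 G34W, against 1606 and 1675 in H3.3 WT, and at 147 and 165 in H3.1 G34W, against 62.2 and 26.4 in H3.1 WT (interaction -4.28 ± 0.80, adjusted p = 0.0771).

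**Figure D5:**
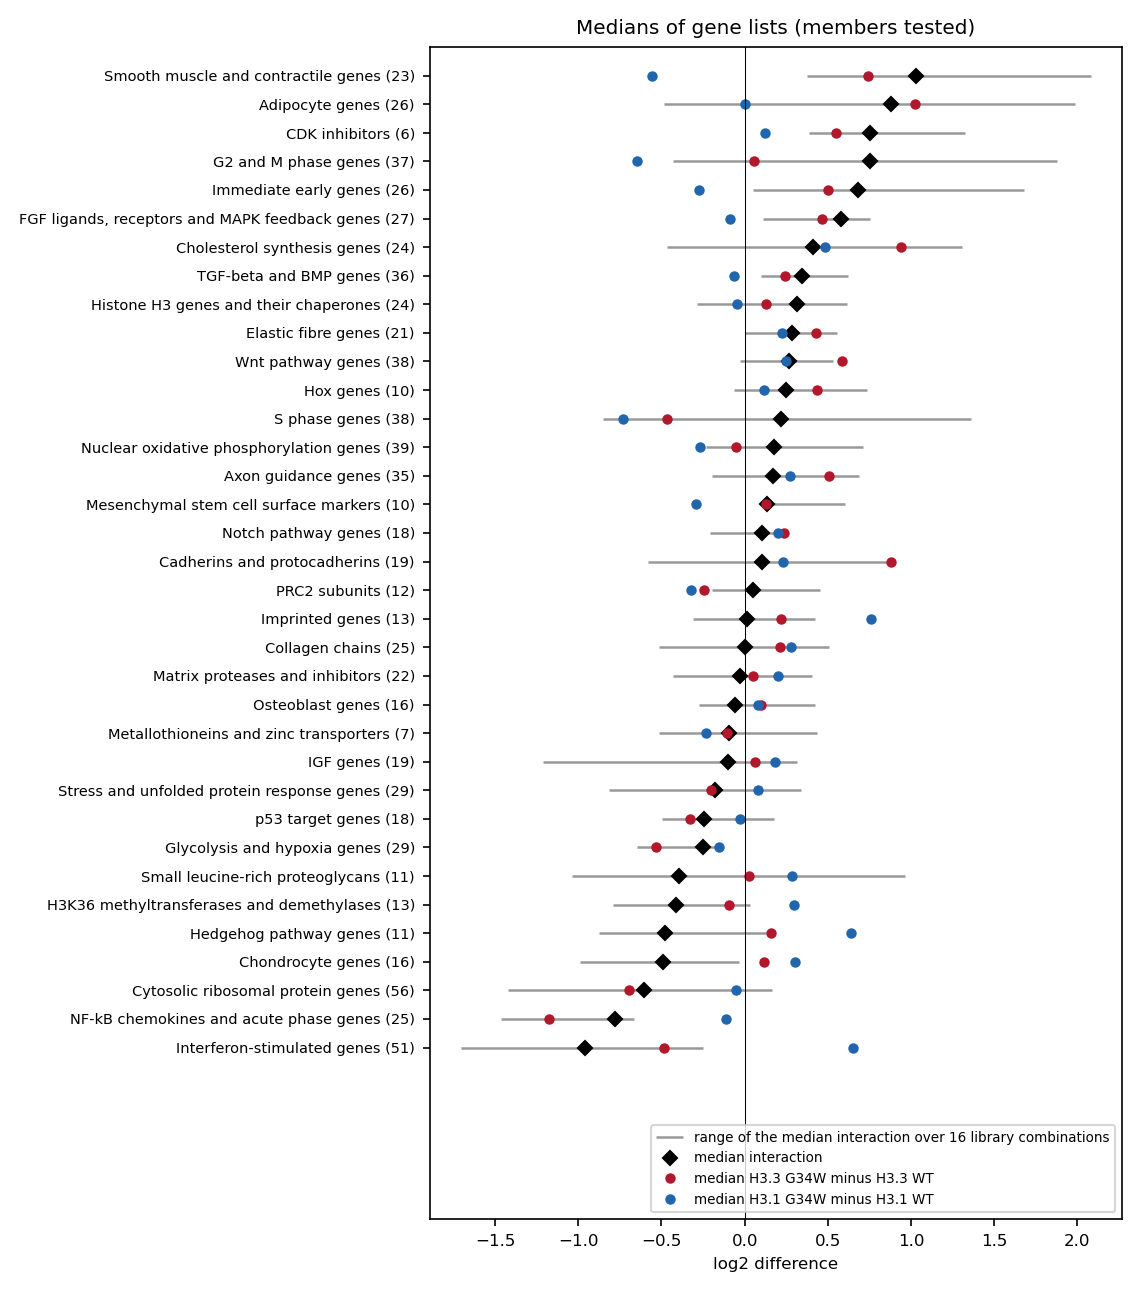
For each gene list with at least 5 members tested (their number in brackets), the diamond is the median interaction, the grey line its range over the 16 choices of 1 library per group, and the points the medians of H3.3 G34W minus H3.3 WT (red) and H3.1 G34W minus H3.1 WT (blue), in log2. Contractile genes lie highest at 1.03 and interferon-stimulated genes lowest at -0.96, and lists such as adipocyte and S phase genes have ranges that cross 0.

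The machinery that writes and reads these tails did not give a call. Only 0.223% of all genes were called, so an absence of calls in lists this short carries little information. Of 12 PRC2 subunits (median 0.05) and 13 enzymes that add or remove lysine 36 methylation (median -0.41, -0.79 to 0.03) 0 passed an unadjusted p under 0.05, against 10.6% of all genes. Ezh2, the PRC2 methyltransferase, was at 1304 and 2005 in H3.3 G34W, against 2029 and 2006 in H3.3 WT, and at 3562 and 2144 in H3.1 G34W, against 3582 and 3812 in H3.1 WT (interaction 0.10 ± 0.38, adjusted p = 0.939). Setd2, the lysine 36 trimethylase, had an interaction of 0.07 ± 0.45 (adjusted p = 0.963). Of 24 histone H3 genes and chaperones (median 0.31) 0 were called. H3f3a was at 24461 and 13983 in H3.3 G34W, against 16419.9 and 16327 in H3.3 WT, and at 11351 and 13769.8 in H3.1 G34W, against 12431 and 17229.8 in H3.1 WT, and H3f3b at 42967 and 35895 in H3.3 G34W, against 25502 and 25555 in H3.3 WT, and at 24487 and 27488 in H3.1 G34W, against 24265 and 29883 in H3.1 WT. Their interactions were 0.40 ± 0.38 and 0.68 ± 0.25 (adjusted p = 0.733 and 0.37). Whether transgene reads were counted under these genes was not tested, so they do not check the labels. Robo1, an axon guidance receptor, missed the threshold narrowly, at 121 and 254 in H3.3 G34W, against 0 and 1.94 in H3.3 WT, and at 5.18 and 2.31 in H3.1 G34W, against 0 and 2.93 in H3.1 WT (interaction 5.50 ± 0.95, adjusted p = 0.0577). On H3.3 its ratio was 193 (95% counting interval 51.7 to 1561) and on H3.1 2.56 (0.662 to 16.1).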

How the data were processed

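Polyadenylated RNA of 16 C3H10T1/2 libraries was sequenced. The authors deposited a table of normalised signal for all genes and libraries, which was used here, and a table of 180 selected genes with the same values. Per the submitters' processing notes RSEM 1.2.4 and mm9 were used, and per the file name the values were median-normalised. The aligner, annotation and filters are not given in the sources used here. Whole reads could be recovered for 42.0% to 46.9% of values at a tolerance of 0.01, too few for a count test, so depth was estimated from those steps.

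Genes averaging 10 or more across the 8 libraries were kept, and log2(value + 1) was fitted over all 8 groups with limma 3.58.1 (R 4.3.3, statmod 1.5.0; eBayes with trend and robust, two-sided, Benjamini-Hochberg adjustment over 12578 genes, threshold 0.05). The H3.3 WT libraries entered as their mean, giving 15 samples and 7 residual degrees of freedom. The script that runs the fit was tested on simulated data, which says nothing about how the calls depend on the choices below. Replicate numbers did not pair the libraries (correlations of replicate deviations from -0.275 to 0.0419).

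Named genes were the 12 largest called interactions in each direction with a mean of at least 50 in 1 group, leaving out provisional symbols and filling up by lowest p where fewer were called (Tspan7 and Cyp3a13, negative and not called), with up to 4 members of each list and a set of fixed genes. Members and lists were chosen with earlier results of these data known. Promoter windows came from RefSeq GRCm38.p6 and were matched by symbol for 21 of the 28 called genes. Pseudocounts, filters, scalings, fits and left-out libraries were varied. The values of 1 called gene are not reported here.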

Additional observations from a re-analysis of the deposited data

Results flagged for a closer look

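With the spread pooled over all groups of the series, the interaction was called in 28 genes (limma, Benjamini-Hochberg adjusted p under 0.05). A fit of the 4 groups alone called 0, so these calls depend on the pooled spread. Those reported were, among positive interactions, 5.19 for Arhgef5, 4.97 for Podxl2, 4.66 for Cdkn2b, 4.60 for Igfbp2, 4.33 for Dusp27, 4.27 for Bmx, 4.05 for Mest, 3.91 for Car8 and 3.81 for Cdkn2a on the log2 scale. Smaller ones were 2.54 for Hey1, 1.71 for Chst11, 1.63 for Tmem47, 1.60 for Plxdc2, 1.56 for Akr1c14, 0.95 for Hccs and 0.93 for Tmem189. The negative interactions were -9.25 for Serpina3i, -8.95 for Serpina3g, -7.12 for Serpina3f, -5.08 for Tmem176a, -4.74 for Mt2, -4.03 for Tmem176b and -3.80 for Ccl2. Further ones were -3.45 for Ankrd33b, -3.07 for 6330406I15Rik, -2.91 for Nckap5 and -2.15 for Aim2. No group had the 4 samples that a check for single outlying samples needs.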

How the results depend on the processing

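All 28 called genes kept the sign of their interaction in every setting that could measure them. They were called for large interactions in these same libraries, so a change of sign was unlikely from the start. The count of 28 became 17 with no filter on low values and 11 with a minimum mean of 50. After rescaling by a trimmed mean of log ratios it was 15, and with the H3.3 WT libraries counted separately 168. With values under 3 reads raised to 3 reads it was 14. It was 0 both in a fit of the 4 groups alone and with 5 close pairs each as 1 sample. Of the 28 genes themselves, 14 stayed called with no filter and 11 with values under 3 reads raised to 3 reads. The 133 calls on H3.3 became 87 with a minimum mean of 50, 228 after quantile normalization, 938 with H3.3 WT counted separately, and 0 in the fit of the 4 groups alone (428 at an unadjusted p under 0.05) and with 5 close pairs as 1 sample (437). The 0 calls on H3.1 became 3 with no filter, 3 without trend and robust moderation, and 4 with H3.3 WT counted separately. Leaving out 1 library gave 3 to 904 calls in the interaction, 50 to 1502 on H3.3 and 0 to 2471 on H3.1, and the cause of these changes was not tested. With the replicate number as a block, which the libraries do not bear out as a pairing, the counts were 113, 783 and 0. Depth limits genes with 0 or 1 read in a group, whose fitted fold changes depend on the pseudocount.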

Other observations

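Neighbours of the called genes in RefSeq GRCm38.p6 were read after their values were seen. Of the 28 called genes 27 were matched and 7 had a called neighbour, in the Serpina3f, Serpina3g and Serpina3i run, the Tmem176a and Tmem176b pair and the Cdkn2a and Cdkn2b pair. Other neighbours had small interactions, such as Mtap beside Cdkn2a (-0.48), Copg2 beside Mest (-0.40) and Igfbp5 beside Igfbp2 (-0.04).

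The authors deposited a second table of 180 selected genes with the same values, of which 133 passed the minimum mean. It held 9 of the 28 called genes (32.1%, against 1.06% of all members), namely Bmx, Car8, Ccl2, Hey1, Igfbp2, Mest, Serpina3f, Serpina3g and Serpina3i. How those genes were selected is not given in the sources used here. Both selections hold values of the same libraries, so the overlap is not independent of the call.

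Among lists not described above, 29 glycolysis and hypoxia genes had a median interaction of -0.25 (-0.64 to -0.13 over the library choices), 18 p53 targets one of -0.25 and 38 Wnt pathway genes one of 0.27, with 0 called. Both measured proliferins fell on H3.3 (median -5.90), and their median difference on H3.1 was also negative, at -3.45. Their median interaction was -2.45, or -0.85 with values under 3 reads raised to 3 reads. They are near copies, so their reads may be shared.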
